A study of Homo sapiens with 18 samples.

Results

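Cal27 is an established line of squamous carcinoma cells from the human tongue. RNA was sequenced from 18 libraries of this line, and the comparison described here uses 6 of them: 3 from cells kept in glucose-deprived DMEM and 3 from cells kept in high-glucose DMEM, all 6 with 10 nM recombinant human CGRP for 24 h. These 6 were chosen by their titles, which read 0 TG and H TG with replicates 1 to 3. The series text reads TG as added CGRP and capTG as control medium, whereas the growth protocol mentions different CM without explaining it, so that what else the media held is uncertain. The replicates are described as independent biological repetitions of a single line. Glucose was absent or high in the compared media by label; no source used here gives glutamine, pyruvate or serum. For context, 3 libraries each of deprived and high-glucose cells in control medium, and 3 of high-glucose cells with CGRP and 5 mM 2-deoxyglucose (2-DG), are set beside the comparison. The remaining 3 libraries, of cells with 5 mM 2-DG in control medium, entered the shared fit but are not compared here.

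Glucose feeds glycolysis, and through the hexosamine pathway it also supplies the sugars that are attached to proteins in the endoplasmic reticulum (ER). Proteins that lack these sugars misfold, and the cell answers with the unfolded protein response: ATF6 and the spliced form of XBP1 raise ER chaperones and degradation factors, while the kinase PERK slows translation and favours the translation of ATF4, which drives genes of amino acid supply and, through DDIT3 (CHOP), of cell death. MondoA, with its partner MLX, binds carbohydrate response elements when glucose phosphates are plentiful, and TXNIP is its best known target. CGRP is a neuropeptide of sensory nerves that signals through the receptor CALCRL with its partner RAMP1, mainly by raising cAMP.

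The promoter windows of 4 genes of the pathways described below are shown first. Some of the groups of genes below are named after factors that bind such letters. Each window is the 250 bases before a RefSeq start of the GRCh38.p14 assembly, written along the strand of its gene. The capitals mark the ER stress response element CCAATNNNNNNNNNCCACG in HSPA5 (chr9:125241344-125241593, minus strand), the ER stress response element II, ATTGG and CCACG with any 1 base between them, in HERPUD1 (chr16:56931892-56932141, plus strand) and the carbohydrate response element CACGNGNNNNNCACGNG in TXNIP (chr1:145996580-145996829, minus strand). In IFIT3 (chr10:89327747-89327996, plus strand, 1 of its 2 starts) they mark the interferon-stimulated response element, GAAA and GAAA with any 2 bases between them, which lies there on the other strand and so reads as its reverse complement.
HSPA5: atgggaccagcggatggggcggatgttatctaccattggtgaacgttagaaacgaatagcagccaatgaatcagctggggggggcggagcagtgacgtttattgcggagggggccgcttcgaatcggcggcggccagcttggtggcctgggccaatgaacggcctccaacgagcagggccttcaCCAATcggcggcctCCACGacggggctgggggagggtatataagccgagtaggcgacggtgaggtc
HERPUD1: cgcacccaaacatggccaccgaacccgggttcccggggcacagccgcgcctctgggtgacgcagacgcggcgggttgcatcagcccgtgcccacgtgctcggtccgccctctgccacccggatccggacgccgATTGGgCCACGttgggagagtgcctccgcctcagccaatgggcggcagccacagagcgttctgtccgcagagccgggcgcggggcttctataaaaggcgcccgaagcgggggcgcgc
TXNIP: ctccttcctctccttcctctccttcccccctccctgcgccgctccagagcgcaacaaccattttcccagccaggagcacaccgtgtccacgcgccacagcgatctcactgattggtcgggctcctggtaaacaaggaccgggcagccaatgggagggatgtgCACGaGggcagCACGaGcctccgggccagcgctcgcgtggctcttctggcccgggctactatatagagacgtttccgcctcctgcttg
IFIT3: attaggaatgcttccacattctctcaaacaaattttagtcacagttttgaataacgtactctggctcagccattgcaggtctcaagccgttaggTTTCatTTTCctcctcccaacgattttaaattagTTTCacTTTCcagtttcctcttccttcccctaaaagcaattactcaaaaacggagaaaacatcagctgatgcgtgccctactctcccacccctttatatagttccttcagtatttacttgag

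All 10 motifs were searched on both strands of 35116 such windows. The ER stress response element was found in 26 of them, 0.074%, and in 7 of the 20 windows of ER chaperone genes (35%), which belong to 6 genes. In the IRE1-XBP1 and ATF6 list it was found in 2 of 17 windows (11.8%), those of CRELD2 and XBP1. The matches below are shown with 6 bases on either side because their CCAAT and CCACG are alike while the 9 letters between them differ.
HSP90B1: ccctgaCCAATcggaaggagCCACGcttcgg
CALR: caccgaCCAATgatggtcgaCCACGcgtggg
PDIA6: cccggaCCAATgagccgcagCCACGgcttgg
CANX: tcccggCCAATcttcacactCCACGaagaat
XBP1: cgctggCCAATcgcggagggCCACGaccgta
CRELD2: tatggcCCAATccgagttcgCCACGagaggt
These lie at chr12:103930210-103930240, chr19:12938378-12938408, chr2:10812847-10812877, chr5:179698772-179698802, chr22:28800597-28800627 and chr22:49918548-49918578, in that order. The matches of CALR and CRELD2 lie on the strand opposite to the gene, and all are written along the strand that holds the letters. HSP90B1 held a further match, on its other strand, and ERO1B held 1. The element II, which can share its CCACG with the first, was in 0.0513% of all windows and in those of HYOU1, HERPUD1 and SDF2L1. The carbohydrate response element was in 0.0456% of all windows and, of the 10 windows of the MondoA list, only in that of TXNIP. The interferon-stimulated response element was in 3.02% of all windows and in 16 of 21 windows of the interferon list (76.2%), and the cell cycle homology region TTTGAA was in 13.3% of all and in 11 of 22 windows of the mitosis list (50%). The C/EBP-ATF element TGATGNAA was in 3.14% of all windows and in 6 of 39 of the ATF4 list (15.4%), those of ASNS, ATF3, CEBPG, CHAC1, FGF21 and JDP2. The other 4 motifs were the sterol element TCACNCCAC (0.883% of all windows, 1 of 23 of the cholesterol list), the antioxidant response element TGACNNNGC (10.9%, 4 of 16 of the NRF2 list), the cAMP response element TGACGTCA (1.65%, 3 of 40 of the cAMP list) and the NF-kB element GGGANTTCC (1.59%, 3 of 21 of the NF-kB list). Windows of different starts of a gene can overlap, so that 1 site can count in 2 windows, as in CANX, IFI44 and IFI27. By gene, 13 of the 16 interferon genes with a window held a match. A match describes letters in these windows and is no measurement of binding.

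The 6 libraries held 28629763 to 31405500 counts over 60683 gene rows, and 18159 genes passed the filter on low counts and were tested. Levels are given as CPM, the counts of a gene scaled to a common library size, which are shares of a library and do not correct for gene length, so that they are compared between libraries and not between genes. The cells carried markers of squamous epithelium: the 12 marker genes summed to 7520 to 7728 CPM in high glucose and 7181 to 9510 CPM in deprivation. Of 10 fibroblast markers 5 could be tested, with a summed level of 31.0 to 32.9 CPM in high glucose and 14.2 to 19.6 CPM in deprivation, and PDGFRA had no count. Of 10 leukocyte markers 4 could be tested, with sums of 11.6 to 12.7 CPM and 8.67 to 11.9 CPM, and MS4A1 had no count. Of 10 neuronal markers 6 could be tested, with sums of 30.8 to 32.4 CPM and 25.6 to 27.7 CPM, and RBFOX3 and ELAVL4 had no count. Of 6 Schwann cell markers 3 could be tested, with sums of 54.9 to 57.4 CPM and 50.7 to 69.7 CPM, mostly from MBP, and S100B had no count. Of 6 endothelial markers 2 could be tested. The endothelial cadherin CDH5 was present at 41.7, 40.5 and 41.6 CPM in high glucose and 3.36, 2.89 and 3.74 CPM in deprivation. The part of other cells in the results below was not tested.

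Replicate 2 of the deprived CGRP cells stood apart from replicates 1 and 3. On the first principal component of all 18 libraries, which held 68.7% of the variance, deprived and high-glucose libraries separated, and on the second (7.39%) this library lay at 59.3 while its mates lay at -12.52 and -13.02. Among 12808 genes, 3.01% differed more than 2-fold between this library and its mates, against 0.00781% between replicates 1 and 3. The deviation followed transcript length: when genes were sorted into 10 equal bins, its median was 0.53 on the log2 scale in the bin of the shortest transcripts and -0.57 in that of the longest. Replicates 1 and 3 differed by medians within 0.0062 in every bin. The largest single deviations included RN7SL1, the RNA of the signal recognition particle, at 11.6, 67.6 and 22.1 CPM in replicates 1 to 3, and REL, an NF-kB subunit with a transcript of 11255 bases, at 26.4, 3.58 and 26.4 CPM. MUC16, a very long mucin transcript, stood at 39.6, 6.86 and 38.6 CPM. Length did not sort all of the largest deviations. PGM5P2, with 1980 bases, stood at 10.67, 2.043 and 10.6 CPM, and RPL30-AS1, with 1989 bases, at 4.805, 18.92 and 4.683 CPM. Counts below include this library, and where a list's count of changes between deprivation and high glucose under CGRP moved without it, the second count follows. What set it apart was not tested. On the second component replicate 2 of the 2-DG cells in control medium lay apart too, at 34.6 against -14.8 and -9.78 in its mates.

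**Figure D1:**
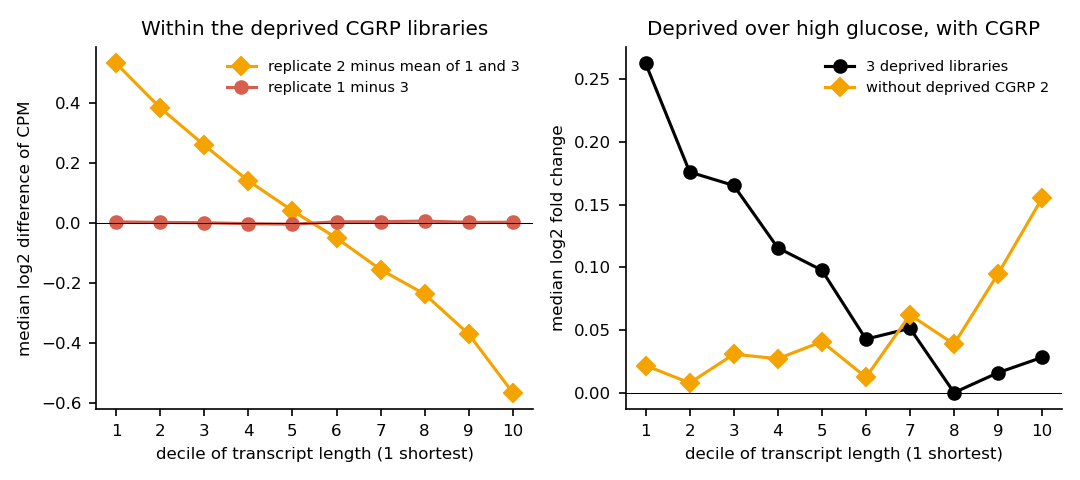
Medians by bin of transcript length (x axis, 10 equal bins, 1 is the shortest). Left, the log2 difference of CPM between deprived CGRP replicate 2 and the mean of its mates (diamonds) falls from 0.53 to -0.57, while replicate 1 minus 3 (circles) stays near 0. Right, the median log2 fold change of deprivation with all 3 deprived libraries (circles) and without replicate 2 (diamonds).

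Most of the measured transcriptome differed between cells in glucose-deprived and high-glucose medium. Of the 18159 genes, 10976 (60.4%) differed between deprived and high-glucose cells under CGRP at an adjusted p below 0.05 (edgeR quasi-likelihood test, Benjamini-Hochberg adjustment). Higher levels in deprivation were found for 5799 genes (31.9%) and lower levels for 5177 (28.5%), and the change was at least 2-fold for 1742 (9.59%) and 2033 (11.2%) of all genes. The 3 libraries of each group did not overlap in 11105 genes (61.2%). The balance of rises and falls depended on scaling: with total counts in place of TMM factors the median of all genes moved from 0.043 to -0.0883 and the split became 4490 higher and 6333 lower. Changes are therefore to be read against a possible shift of that size. Without deprived CGRP 2, 11686 genes were called (64.4%), 5834 higher (32.1%) and 5852 lower (32.2%). Of the original calls 10084 (91.9%) held in the same direction and none changed sign. In bulk RNA a change in the number of cells of a kind and a change in RNA per cell cannot be told apart.

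**Figure D2:**
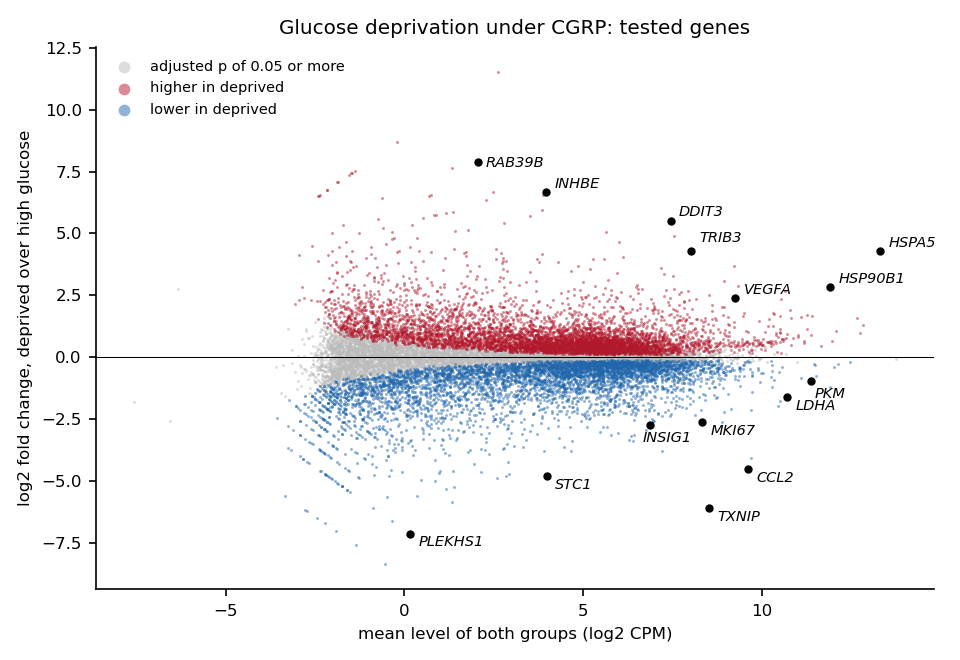
Log2 fold change of deprivation under CGRP (y axis) against the mean level of both groups (x axis, log2 CPM) for the tested genes. Genes with no count in these 6 libraries are not drawn. Coloured points passed at an adjusted p below 0.05. HSPA5 lies at the far right with a change of 4.29, and TXNIP lies at -6.10.

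Of 7 genes tested on the list of the glucose sensor MondoA, 3 arrestin-family targets fell, 2 genes rose and 2 did not pass, with a median of -0.03 (0.05 without deprived CGRP 2). TXNIP, which restrains glucose uptake and binds thioredoxin, stood at 755, 672 and 760 CPM in high glucose and at 10.4, 10.4 and 11.1 CPM in deprivation. The groups were far apart, and the library that deviates elsewhere lay with its mates. The log2 fold change was -6.10 ± 0.08 (SE, 3 libraries per group, adjusted p = 6.6e-18). Its relative ARRDC4 fell from 43.3, 42.2 and 45.2 CPM to 6.01, 5.51 and 6.89 CPM, and ARRDC3, an arrestin of the same family, from 54.8, 51.1 and 53.5 CPM to 18.2, 16.3 and 17.8 CPM. The factors themselves did not move together. MLX rose by 0.27, MLXIPL (ChREBP), at 1.78 to 2.35 CPM, rose by 1.27, and MLXIP (MondoA) had a fold change of -0.03 that did not pass, nor did the arrestin ARRDC2 at 0.08.

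Most enzymes of glycolysis were lower in deprivation, while transporters were higher. Of 21 tested genes 16 fell and 5 rose, with a median log2 fold change of -0.90 against 0.043 for all genes. ALDOC, a fructose-bisphosphate aldolase, changed the most, from 144, 141 and 139 CPM to 34.5, 36.5 and 30.9 CPM. LDHA, which makes lactate, stood at 2512, 2638 and 2500 CPM in high glucose and 795, 936 and 749 CPM in deprivation, a log2 fold change of -1.62 ± 0.08 (adjusted p = 4.6e-11). PGK1 (-1.40), PGAM1 (-1.19), GPI (-1.02) and PKM (-0.98) fell in the same range, and GAPDH the least of the lower-pathway enzymes (-0.26, adjusted p = 0.045). The 5 that rose were the lactate transporters SLC16A1 (1.00 ± 0.04) and SLC16A3 (0.16), the glucose transporter SLC2A1 (0.57 ± 0.08), the regulator PFKFB4 (0.66) and hexokinase HK2 (0.41). HK2 depended on the library: its 133.5 CPM in deprived CGRP 2 lay below all 3 high-glucose values, whereas the mates stood at 239.9 and 221.6 CPM. Its call was lost in 7 of the alternative fits, among them those without deprived CGRP 1 (0.25, adjusted p = 0.168) or 3 (0.32, adjusted p = 0.109) and with total-count scaling (0.28, adjusted p = 0.154), and its fold change was 0.60 without deprived CGRP 2. SLC16A3 no longer passed without deprived CGRP 2. Among 8 genes of gluconeogenesis and the pentose phosphate pathway, 3 rose and 1 fell (3 and 2 without deprived CGRP 2), and PCK2, the mitochondrial enzyme that makes phosphoenolpyruvate, rose by 2.58. The median of that list, 0.03, became -0.02 without deprived CGRP 2 and -0.11 with total-count scaling.

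Every ER chaperone on the list rose. HSPA5 (BiP, GRP78) binds unfolded proteins in the ER and holds the stress sensors inactive. It stood at 988, 1007 and 1013 CPM in high glucose and at 18250, 22050 and 18450 CPM in deprivation, where it took 1.78 to 2% of all counts against 0.104 to 0.106%. The log2 fold change was 4.29 ± 0.08 (adjusted p = 7.8e-16), and 4.17 without deprived CGRP 2. HSP90B1 (GRP94) rose from 928, 981 and 979 CPM to 6117, 8285 and 6011 CPM, and HYOU1, which exchanges the nucleotide on BiP, from 162, 158 and 155 CPM to 1236, 978 and 1232 CPM. In all 3 of these genes the groups were well separated. PDIA4, a disulfide isomerase, rose by 2.66, the lectin chaperones CALR and CANX by 1.67 and 1.63, and the oxidase ERO1A by 0.52, the smallest change. All 16 members rose, their median was 1.83, and their summed level went from between 8085 and 8219 CPM to between 43590 and 52010 CPM.

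The sensors and factors of the ER arms were higher as well. HERPUD1, an adaptor of the degradation complex, stood at 27.0, 27.5 and 27.9 CPM in high glucose and 266, 300 and 272 CPM in deprivation (3.35 ± 0.06, adjusted p = 4.3e-16). DNAJB9, a co-chaperone of BiP, rose by 2.80, and the secreted stress proteins CRELD2, SDF2L1 and MANF rose by 2.49, 2.49 and 2.34. XBP1 rose by 2.10 and its activating nuclease ERN1 (IRE1) by 1.76, while ATF6 rose by 0.96. These counts per gene do not separate spliced from unspliced XBP1. In all, 12 of the 15 members rose (13 without deprived CGRP 2), the site-1 protease gene MBTPS1 fell by 0.21, and ATF6B and MBTPS2 did not pass. Of 17 genes of ER-associated degradation 11 rose and 2 fell (12 and 3 without deprived CGRP 2), led by SEL1L (2.02) and its ligase SYVN1 (1.75). VCP, the ATPase that extracts substrates from the membrane, fell from 629, 635 and 636 CPM to 374, 397 and 375 CPM, and its adaptor NPLOC4 fell too.

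Genes that make and attach the sugars of glycoproteins rose in 20 of 25 cases and fell in 2 (21 and 2 without deprived CGRP 2). GFPT1, the first and rate-limiting enzyme of the hexosamine pathway, went from 100.4, 97.8 and 101 CPM to 335, 284 and 343 CPM (1.68 ± 0.08, adjusted p = 1.7e-11). Its paralog GFPT2 went the other way, from 57.0, 57.9 and 58.7 CPM to 14.9, 11.7 and 14.9 CPM (-2.06 ± 0.07, adjusted p = 6.6e-13). The 2 paralogs thus changed in opposite directions in every library. UAP1, DPAGT1, ALG5 and the oligosaccharyltransferase subunits STT3A and RPN1 rose by 1.11 to 1.62, and OGA, which removes single sugars from proteins, fell by 0.60. Of 25 genes of transport between ER and Golgi 19 rose and 3 fell (19 and 4 without deprived CGRP 2), with a median of 0.50.

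**Figure D3:**
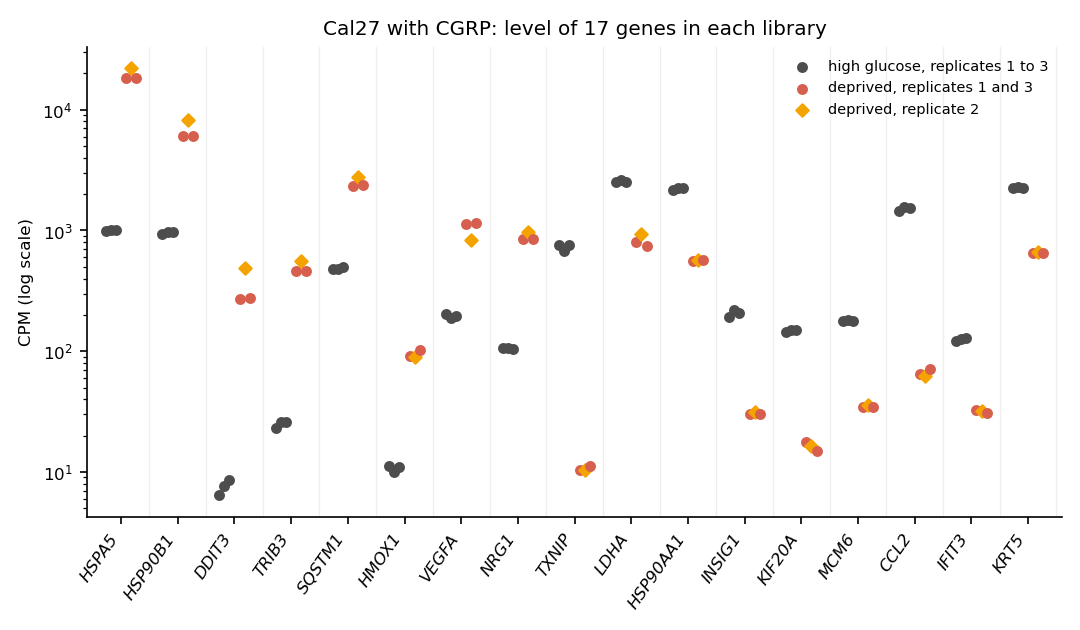
CPM (log scale) of 17 genes in the 6 libraries with CGRP. Circles are high glucose replicates 1 to 3 (dark) and deprived replicates 1 and 3 (red), and the diamond is deprived replicate 2. For example HSPA5 lies near 1000 CPM in high glucose and between 18250 and 22050 CPM in deprivation, and TXNIP between 672 and 760 CPM against 10.4 to 11.1 CPM.

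ATF4 targets rose nearly as a block. DDIT3 (CHOP), the stress factor that favours cell death, stood at 6.399, 7.57 and 8.53 CPM in high glucose and at 269, 489 and 273 CPM in deprivation. All deprived libraries were above all high-glucose ones, and deprived CGRP 2 was well above its mates. The log2 fold change was 5.52 ± 0.24 (adjusted p = 7.9e-12), and 5.15 without that library. TRIB3, a pseudokinase that dampens ATF4, rose from 23.1, 26.0 and 25.8 CPM to 458, 558 and 459 CPM. INHBE, a secreted activin subunit, rose from 0.367, 0.188 and 0.350 CPM to 29.6, 34.0 and 29.3 CPM, the largest change among genes named by size (6.66 ± 0.17, adjusted p = 1.5e-14). CHAC1, which degrades glutathione, NUPR1, ADM2 and GDF15, a stress cytokine, rose by 3.85, 3.96, 3.85 and 3.61. ATF4 itself, which is controlled largely at translation, rose by 1.30. Of 31 members tested 29 rose and 2 fell, with a median of 1.98. The 2 that fell were VLDLR, a lipoprotein receptor (-0.70), and DDIT4 (REDD1), an inhibitor of mTORC1, which went from 1051, 1102 and 1026 CPM to 596, 704 and 573 CPM. ASNS, asparagine synthetase, rose by 2.02 from a level of only 0.605 to 0.720 CPM.

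Amino acid supply rose with them; several of these genes stand on the ATF4 list too. SLC7A11, which imports cystine, stood at 36.3, 34.9 and 33.5 CPM in high glucose and 389, 217 and 398 CPM in deprivation (3.26 ± 0.20, adjusted p = 6.1e-10). Here deprived CGRP 2 was the lowest of its group and still above every high-glucose library. Of 14 transporters 12 rose (13 without deprived CGRP 2), among them SLC6A9 for glycine (2.53), SLC1A4 (2.27), SLC38A2 (1.75) and SLC3A2 (1.68). SLC1A3, a glutamate carrier, fell from 13.4, 14.0 and 14.4 CPM to 3.00, 2.70 and 3.32 CPM. In serine, one-carbon and asparagine synthesis 11 of 15 rose: PSPH and PSAT1, of serine synthesis, by 1.42 and 1.26, and the mitochondrial folate enzymes ALDH1L2, MTHFD2 and SHMT2 by 2.83, 1.42 and 1.12. The 4 that fell included the cytosolic folate enzymes MTHFD1 (-0.88) and SHMT1 (-0.71) and ALDH18A1 (-0.27), of proline synthesis.

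Cytosolic aminoacyl-tRNA synthetases, which charge tRNAs with amino acids, rose in 15 of 20 cases. WARS1, for tryptophan, stood at 65.3, 68.3 and 67.8 CPM in high glucose and 426, 419 and 432 CPM in deprivation (2.66 ± 0.04, adjusted p = 2e-16), with the groups far apart. GARS1 rose by 2.12, AARS1 by 1.72 and SARS1 by 1.52. The 3 that fell were RARS1 (-0.26), HARS1 (-0.21) and QARS1 (-0.14), and VARS1 was among the 2 that did not pass. The nutrient-sensing genes around mTORC1 and AMPK were mixed, with 16 of 30 higher and 6 lower. SESN2, a leucine sensor and ATF4 target, rose from 14.3, 14.8 and 14.6 CPM to 96.6, 92.2 and 95.8 CPM, whereas its relatives SESN3 and SESN1 fell by 2.14 and 0.78. On that list 15 rose and 11 fell without deprived CGRP 2.

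NRF2 targets, which counter oxidants, rose in 14 of 21 cases and fell in 4 (14 and 6 without deprived CGRP 2). HMOX1, which degrades heme, stood at 11.1, 10.0 and 10.95 CPM in high glucose and 90.6, 88.7 and 102 CPM in deprivation (3.13 ± 0.09, adjusted p = 4.3e-14). OSGIN1 rose by 2.67, and GCLC, the catalytic subunit of glutathione synthesis, by 2.30 against 0.97 for its partner GCLM. The ferritin genes rose: FTH1 from 4116, 4286 and 4324 CPM to 8702, 13470 and 8827 CPM, with the highest value in deprived CGRP 2, and FTL by 1.25. AKR1B10 moved against the list, from 4.44, 5.35 and 5.03 CPM to 0.247, 0.463 and 0.715 CPM, and the reductase GSR (-0.88), PRDX1 (-0.75) and ME1 (-0.27) fell too. The aldo-keto reductases AKR1C1 and AKR1C2, near-identical copies whose reads the counting may have split, rose by 2.45 and 2.26. Of 9 metallothionein and zinc genes 6 rose and 1 fell (7 and 2 without deprived CGRP 2), MT1E by 1.54 and the zinc exporter SLC30A1 by 1.59. MT1E was highest in deprived CGRP 2, at 588 CPM against 363 and 345 CPM in its mates, and without that library the median of the list was 0.49 in place of 0.79.

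Autophagy genes rose in 16 of 32 cases and fell in 2 (17 and 2 without deprived CGRP 2), with 3 members well ahead of the rest. WIPI1, which marks forming autophagosomes, rose from 7.50, 8.07 and 8.34 CPM to 43.7, 48.6 and 44.0 CPM. The cargo receptor SQSTM1 (p62) rose from 483, 482 and 494 CPM to 2319, 2761 and 2367 CPM, and MAP1LC3B, the membrane-bound LC3, by 2.24. The initiating kinase ULK1, at 67.6, 62.8 and 65.5 CPM against 62.5, 60.2 and 60.8 CPM, did not pass (adjusted p = 0.1). Of 27 lysosomal genes 8 rose and 7 fell, shares close to the 31.9% and 28.5% of all genes, and 8 rose and 13 fell without deprived CGRP 2. NEU1 and MCOLN1 rose by 0.89 and 0.93, whereas the protease CTSB and the lysosomal regulator TFEB fell by 1.00 and 1.20. The proteasome fell as a complex: 21 of 27 subunits were lower and none was higher, with a median of -0.42, and without deprived CGRP 2 the count was 26 and the median -0.64. PSMD1, of the regulatory particle, fell the most, from 254, 259 and 261 CPM to 105, 108 and 106 CPM.

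Cytosolic and ER chaperones of the same families moved apart. HSP90AA1, the inducible cytosolic HSP90, stood at 2163, 2239 and 2263 CPM in high glucose and 561, 575 and 573 CPM in deprivation (-1.96 ± 0.06, adjusted p = 9.4e-14), while its ER paralog HSP90B1 rose by 2.82. HSPB1 fell by 1.49 and HSPA8 by 0.51. Of 17 heat shock genes 11 fell (12 without deprived CGRP 2) and 4 rose. The 4 that rose were HSF1 (0.41) and the mitochondrial genes HSPD1 (0.29), HSPA9 (1.05) and LONP1 (1.46), a protease.

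Cholesterol synthesis was lower at nearly every step. Of 24 genes 22 fell, with a median of -1.25. INSIG1, which retains the SREBP precursor in the ER and is itself an SREBP target, stood at 191, 220 and 208 CPM in high glucose and 30.0, 31.5 and 30.3 CPM in deprivation (-2.75 ± 0.06, adjusted p = 3.5e-15). HMGCS1, at the entry of the pathway, fell from 285, 289 and 293 CPM to 57.8, 48.8 and 60.8 CPM (-2.37 ± 0.07), and SQLE, which oxidises squalene, fell by 1.42. The regulator SREBF2 fell by 1.06. PMVK and TM7SF2 were called higher by 0.46 and 0.28, with their highest values in deprived CGRP 2, and without that library neither passed. Fatty acid synthesis followed, with 11 of 14 lower, the desaturase SCD falling from 916, 921 and 927 CPM to 249, 160 and 248 CPM and FASN from 349, 353 and 340 CPM to 96.0, 60.3 and 102 CPM. No gene of fatty acid oxidation rose: 8 of 16 fell, and 13 fell and 1 rose without deprived CGRP 2. ANGPTL4, a lipase inhibitor, fell by 3.32 and the carnitine transferase CPT1A by 0.66.

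All mitosis genes were lower. KIF20A, a kinesin of cytokinesis, stood at 145, 149 and 149 CPM in high glucose and 17.6, 16.3 and 14.99 CPM in deprivation (-3.18 ± 0.06, adjusted p = 4.3e-16). The proliferation marker MKI67 fell from 620, 538 and 521 CPM to 112, 47.8 and 112 CPM, lowest in deprived CGRP 2, and AURKB, CCNA2 and PLK1 fell by 2.42, 2.29 and 2.24. All 22 members passed and fell, with a median of -2.08 (-2.07 without deprived CGRP 2). Of 23 replication genes 21 fell (22 without deprived CGRP 2). RRM2, which makes deoxynucleotides, fell by 2.56 and the helicase subunit MCM6 by 2.36. CDC6, which loads the replicative helicase, was the exception, at 88.7, 92.3 and 94.7 CPM in high glucose and 145, 136 and 145 CPM in deprivation (0.63 ± 0.05). Its partner CDT1 did not pass with all 3 libraries (-0.21, adjusted p = 0.096) and was called lower without deprived CGRP 2 (-0.39, adjusted p = 0.00031).

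The inhibitors of cyclin-dependent kinases did not move together. CDKN2C fell from 20.6, 21.4 and 20.5 CPM to 2.58, 3.85 and 3.06 CPM, whereas CDKN1A (p21) and CDKN2B rose by 0.73 and 0.80, and CCND1 rose by 0.35. Of 18 p53 targets 10 rose and 3 fell (9 and 4 without deprived CGRP 2), led by GADD45A (1.95) and the death receptor TNFRSF10B (1.14), which is also a CHOP target. Among 18 genes of the BCL2 family and death receptors, 7 rose and 6 fell (7 and 7 without deprived CGRP 2). Of all tested genes 31.9% rose and 28.5% fell. BCL2L1, whose longer product protects cells, rose from 55.1, 53.1 and 52.9 CPM to 146, 146 and 144 CPM. The BH3-only genes split, with BBC3 and PMAIP1 higher by 0.77 and 0.57 and BMF and BID lower by 1.19 and 1.28.

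Genes of the ribosome and of mitochondria moved in opposite directions. Cytosolic ribosomal protein genes were called higher in 34 of 40 cases and lower in none, with a median of 0.60. Deprived CGRP 2 lay 0.77 above its mates in the median of the list, and without it 18 of 40 passed with a median of 0.23. RPL10A, for example, stood at 696, 739 and 720 CPM in high glucose and at 1227, 1967 and 1203 CPM in deprivation. The elongation factor EEF2 rose from 2905, 2831 and 2794 CPM to 6086, 5549 and 5937 CPM (1.04 ± 0.05, adjusted p = 3.4e-11), 1.05 without that library. Of 20 genes of ribosome biogenesis 12 rose and 1 fell (13 and 4 without deprived CGRP 2), with rises of RRP12 by 1.05 and MYC by 0.79.

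Of the 13 protein-coding genes of the mitochondrial genome 11 fell (12 without deprived CGRP 2). MT-CO3 went from 5088, 5530 and 5549 CPM to 2063, 3048 and 1953 CPM, MT-ATP6 fell by 1.18 and MT-CYB by 0.85. MT-ND1, the first mRNA after the ribosomal RNAs on its strand, rose by 0.45 ± 0.06, and MT-CO1 did not pass (adjusted p = 0.23). The large ribosomal RNA of the same genome, MT-RNR2, rose from 3137, 3445 and 3293 CPM to 9432, 10740 and 9108 CPM (1.57 ± 0.08, adjusted p = 3.6e-11), so that RNAs of one genome changed in both directions. Nuclear genes of oxidative phosphorylation fell in 13 of 33 cases and rose in none, and in 22 without deprived CGRP 2. Of 16 genes of the TCA cycle 12 fell (14 without deprived CGRP 2), IDH2 by 0.98 and IDH3A by 0.62.

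**Figure D4:**
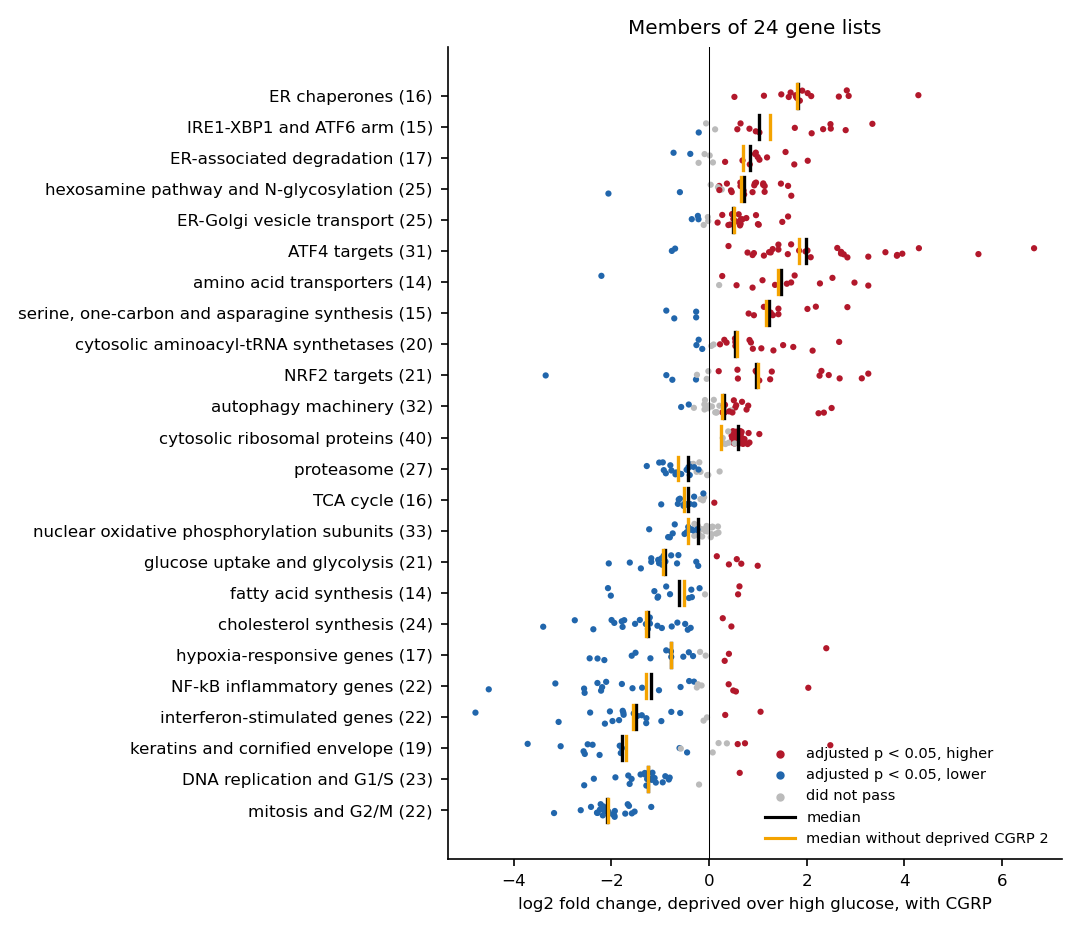
Log2 fold change of deprivation under CGRP for the tested members of 24 gene lists, with the number of members in brackets. Red and blue points passed as higher or lower, grey points did not pass, and the bars are the median with (black) and without (orange) deprived CGRP 2. The chaperone list lies wholly above 0 (median 1.83) and the mitosis list wholly below (median -2.08), and the ribosomal protein bar moves from 0.60 to 0.23.

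Inflammatory genes were mostly lower. CCL2, which attracts monocytes, stood at 1440, 1553 and 1524 CPM in high glucose and 64.3, 62.2 and 71.1 CPM in deprivation (-4.51 ± 0.24, adjusted p = 1.2e-10). CXCL1 fell by 3.15, CXCL8 by 2.56, CCL20 by 2.55, IL1B by 2.21 and TNF by 2.19, together with the feedback inhibitors NFKBIA (-2.29) and TNFAIP3 (-1.79). Of 22 NF-kB genes 15 fell (17 without deprived CGRP 2) and 4 rose, with a median of -1.20. IL6 was the largest of the 4, at 3.80, 3.32 and 4.01 CPM in high glucose and 14.6, 17.7 and 13.3 CPM in deprivation (2.03 ± 0.12, adjusted p = 3.3e-10). LIF, a cytokine of the IL6 family, rose by 0.55, and CXCL2 and RELB by 0.50 and 0.40.

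Interferon-stimulated genes fell in 18 of 22 cases (20 without deprived CGRP 2) and rose in 2, with a median of -1.51. IFIT3, which binds viral RNA complexes and whose promoter is shown above, stood at 122, 126 and 128 CPM in high glucose and 32.8, 31.7 and 30.9 CPM in deprivation (-1.98 ± 0.05, adjusted p = 4.8e-15). CXCL10, which attracts T cells, fell from 12.9, 13.6 and 14.9 CPM to 0.636, 0.463 and 0.390 CPM, IFI44L by 3.08 and IFIT1 by 2.44. The exceptions were ISG20 (1.05) and the signalling factor STAT2 (0.33). ISG15 and IRF7 did not pass with all 3 libraries (-0.04 and -0.11) and were called lower without deprived CGRP 2 (-0.35 and -0.26). Outside this list GBP4, an interferon-induced GTPase, fell by 3.79.

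Genes known from hypoxia were mostly lower, while VEGFA was higher. VEGFA, which drives vessel growth and is also an ATF4 target, stood at 203, 190 and 196 CPM in high glucose and 1125, 840 and 1146 CPM in deprivation (2.40 ± 0.10, adjusted p = 4.5e-12). The carbonic anhydrase CA9 fell from 76.4, 68.9 and 69.7 CPM to 12.6, 17.5 and 14.0 CPM, the prolyl hydroxylase EGLN3 by 2.15 and EPAS1 (HIF-2α) by 1.59. HIF1A fell by 0.78. Of 17 members 12 fell and 3 rose, VEGFA, P4HA2 (0.41) and ADM (0.32). Without deprived CGRP 2 ADM did not pass, and 2 rose and 13 fell.

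Genes of the EGF receptor family moved both ways, with large rises of NRG1 and AREG. NRG1, a ligand of ERBB3 and ERBB4, stood at 106, 106 and 103 CPM in high glucose and 846, 976 and 853 CPM in deprivation (3.08 ± 0.06, adjusted p = 1.2e-15). AREG rose from 10.9, 9.61 and 11.3 CPM to 99.8, 142 and 95.5 CPM, and ERRFI1, a feedback inhibitor of the receptor, by 2.22. Of 12 members 7 rose and 5 fell (7 and 4 without deprived CGRP 2). The ligands EREG, BTC and HBEGF rose by 1.33, 0.91 and 0.27, and EGFR by 1.70, whereas the ligands EGF, NRG2 and TGFA fell by 1.81, 1.89 and 0.31 and the receptors ERBB2 and ERBB3 by 0.17 and 0.21. NRG2 had only 27 counts over the 6 libraries. Among 13 feedback genes of ERK signalling 9 rose (8 without deprived CGRP 2), PHLDA1 by 1.89, ETV5 by 1.75 and DUSP5 by 1.72, whereas SPRY1 fell by 1.88. Of 11 AP-1 genes 8 rose, ATF3 by 2.63 and FOSL1 by 1.62, and FOS, JUNB and FOSL2 fell by 1.38, 0.89 and 0.74.

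Keratins were mostly lower. KRT5, the basal keratin, stood at 2239, 2301 and 2237 CPM in high glucose and 645, 669 and 652 CPM in deprivation (-1.79 ± 0.06, adjusted p = 3.5e-13), and its partner KRT14 fell by 1.83 and KRT15 by 2.49. S100A9, an alarmin of squamous cells, fell by 3.04 and SERPINB3, a protease inhibitor with a near-identical neighbour, by 4.70. Of 19 genes of keratins and the cornified envelope 12 fell (13 without deprived CGRP 2) and 3 rose, KRT17 by 0.59, SPRR1B by 0.73 and the protease KLK7 by 2.48. Junction genes moved both ways, 8 of 18 each (9 higher and 8 lower without deprived CGRP 2): OCLN and CLDN7 of tight junctions rose by 2.42 and 1.88 and the desmosomal cadherin DSG3 by 1.80, while DSC3, JUP and CTNNB1 fell by 0.69, 0.56 and 0.61. Of the laminin-332 chains LAMB3 rose from 772, 728 and 737 CPM to 2908, 2687 and 2899 CPM, while LAMA3 did not pass. The integrin ITGB6 fell by 2.81. PLAT, the tissue plasminogen activator, fell from 276, 271 and 277 CPM to 21.4, 16.0 and 21.6 CPM. PLAU, the urokinase, at 971 to 1009 CPM against 941 to 1015 CPM, did not pass. Among 15 genes of epithelial-mesenchymal transition 6 rose and 6 fell (5 and 6 without deprived CGRP 2), beside 31.9% and 28.5% of all tested genes.

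The receptor for the added peptide was itself lower. RAMP1 stood at 19.5, 21.0 and 19.9 CPM in high glucose and 6.64, 12.1 and 6.96 CPM in deprivation, with the highest deprived value in deprived CGRP 2. The log2 fold change was -1.24 ± 0.18 (adjusted p = 2e-05), and -1.59 without that library. CALCRL, the receptor chain, fell from 6.49, 4.41 and 5.82 CPM to 3.36, 2.47 and 2.54 CPM (-0.999 ± 0.196, adjusted p = 0.00034). RAMP2, RAMP3 and the CGRP gene CALCA had no count in these libraries. CALCB, which encodes the second form of CGRP, had no count in high glucose and 0.883, 0.694 and 0.585 CPM in deprivation. Downstream, the catalytic subunits PRKACA and PRKACB fell by 0.64 and 0.44, and the cyclase ADCY7 rose from 30.2, 27.9 and 27.9 CPM to 126, 80.1 and 124 CPM. Of 13 members 6 fell and 3 rose. Genes that respond to cAMP through CREB did not move as a group: 5 of 16 rose, AREG and DUSP1 (1.81) among them, and 4 fell (3 without deprived CGRP 2), such as NR4A2 (-0.83). Of 18 Rap1 genes, which lie on another branch of cAMP signalling, 4 rose and 5 fell (5 and 5 without deprived CGRP 2). Their median, 0.03, became -0.02 without deprived CGRP 2 and -0.10 with total-count scaling. The counts of the receptor, cAMP and Rap1 lists stand beside 31.9% of all tested genes that rose and 28.5% that fell.

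Some genes were almost silent on one side. Among the 10976 genes called of 18159 tested, 76 held at most 3 counts in each high-glucose library and 163 in each deprived library. The filter on low counts used all 6 groups, so such genes were tested because of counts in other libraries. How many tested genes held so few counts without being called was not counted. RAB39B, a vesicle GTPase, had 2, 0 and 1 counts in high glucose and 225, 233 and 241 in deprivation, and SPX, a secreted peptide, 3, 3 and 1 against 117, 125 and 133. CASP5, an inflammatory caspase, had 2 counts in each high-glucose library and 114, 61 and 128 in deprivation. In the other direction PLEKHS1 had 76, 67 and 70 counts in high glucose and 0, 0 and 1 in deprivation, and the adhesion receptor ADGRF5 57, 43 and 50 against 0, 0 and 1. No fold is given for these genes. Among better measured genes the chemerin receptor CMKLR2 rose from 0.306, 0.438 and 0.191 CPM to 28.2, 32.6 and 27.2 CPM, the sodium channel SCN9A from 0.551, 0.563 and 0.255 CPM to 30.5, 23.3 and 31.5 CPM, and AGR2, an ER disulfide isomerase of secretory cells, from 11.4, 12.3 and 12.8 CPM to 308, 478 and 307 CPM. HCAR2, a receptor for hydroxybutyrate, fell from 11.4, 12.02 and 11.9 CPM to 0.459, 0.308 and 0.423 CPM. STC1, a secreted glycoprotein, fell from 33.7, 29.3 and 28.99 CPM to 1.52, 0.617 and 1.11 CPM.

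The same comparison of deprived with high-glucose cells in control medium, from 6 other libraries, called 11011 genes (60.6%). Of the genes called with CGRP 85.1% were called there in the same direction, as were 84.8% of those called without it, and 28 were called in opposite directions. HSPA5 had a log2 fold change of 4.48 without CGRP and 4.29 with it, LDHA -1.40 and -1.62, KRT5 -1.64 and -1.79. A test of the difference itself called 282 genes (1.55%), 164 with a difference above 0 (0.903%) and 118 below (0.650%), and 2164 genes had an unadjusted p below 0.05. Among the 282 the change was larger with CGRP in 137, smaller in 97 and of opposite sign in 48. The count was sensitive to libraries: it was 596 without deprived CGRP 2 and 164 to 183 when any of the 6 high-glucose libraries or deprived control 1 or 2 was left out. Without both deprived CGRP 2 and replicate 2 of the 2-DG control cells it was 2476. With DESeq2 in place of edgeR it was 519, and with an offset for transcript length 577.

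Counts of differences by list, here and in the next paragraph, are from the main fit only and were not taken without deprived CGRP 2. The count over all genes was sensitive to that library, so the counts by list may move too. Differences above 0 were found for 10 of 31 ATF4 targets and below 0 for none. INHBE had means of 1.35 ± 0.0633 CPM (SD, n = 3) in high glucose without CGRP and 0.302 ± 0.0991 CPM with it, and of 26.5 ± 2.01 and 30.9 ± 2.62 CPM in deprivation. GDF15 likewise had 44.5 ± 2.85 and 22.02 ± 0.866 CPM in high glucose and 242 ± 6.71 and 269 ± 20.3 CPM in deprivation, and PSAT1 338 ± 3.35 and 193 ± 2.72 CPM against 522 ± 9.12 and 462 ± 28.97 CPM. In these 3 genes the levels with and without CGRP were further apart, as a ratio, in high glucose than in deprivation. NRF2 targets showed 7 differences above 0 of 21 and none below. AKR1C2 had 18.4 ± 1.00 and 17.5 ± 1.86 CPM in high glucose and 41.8 ± 2.08 and 84.2 ± 6.30 CPM in deprivation, so that here the deprived levels were the ones apart.

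Differences below 0 were found for 7 of 22 interferon-stimulated genes, 5 of 17 hypoxia genes, 4 of 22 NF-kB genes and 3 of 7 MondoA genes, and for none of these lists above 0. EDN2, an endothelin, was at 9.26 ± 0.410 and 9.94 ± 0.873 CPM in high glucose without and with CGRP, and at 12.2 ± 3.79 and 1.95 ± 1.32 CPM in deprivation. Its 3 deprived CGRP values were 2.44, 0.463 and 2.96 CPM, lowest in replicate 2, and the difference was -2.71 ± 0.42 with it and -2.27 without. IL6 was at 5.01 ± 0.177 and 3.71 ± 0.355 CPM in high glucose and 38.6 ± 2.08 and 15.2 ± 2.29 CPM in deprivation, so that its rise was smaller with CGRP. TXNIP was at 574 ± 28.3 and 729 ± 49.2 CPM in high glucose and at 13.4 ± 0.257 and 10.6 ± 0.430 CPM in deprivation. FGF1, a growth factor, kept more of its level with CGRP: 10.9 ± 0.0931 and 11.4 ± 0.783 CPM in high glucose against 1.10 ± 0.0747 and 3.12 ± 0.149 CPM in deprivation.

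**Figure D5:**
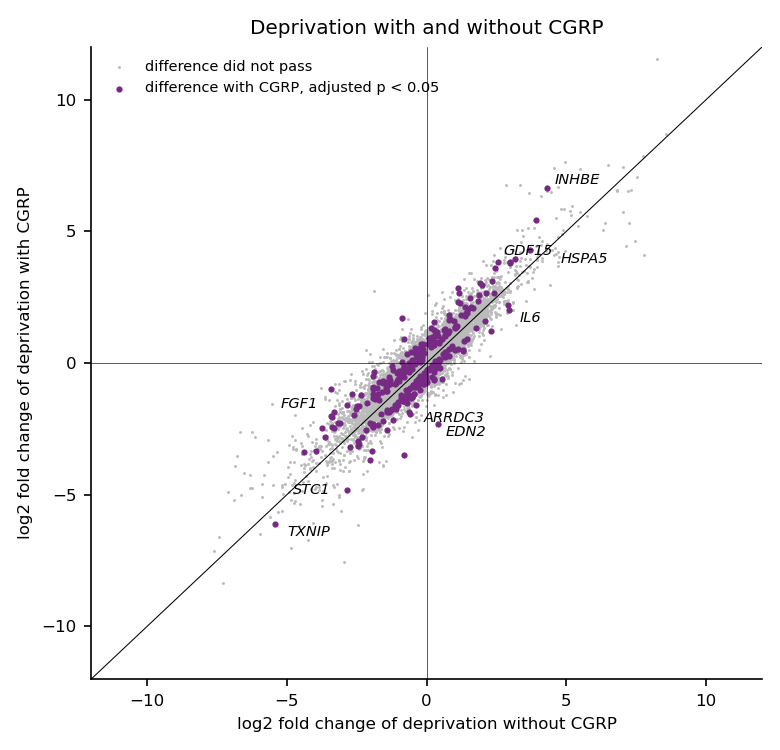
Log2 fold change of glucose deprivation with CGRP (y axis) against that without CGRP (x axis) for the tested genes. Purple points are the 282 genes whose difference passed, and the line marks equal changes. INHBE and GDF15 lie above the line, and EDN2, ARRDC3, STC1 and IL6 lie below it.

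2-DG, a glucose analog that is phosphorylated but blocks glycolysis and disturbs N-glycosylation, gave a much smaller response at 5 mM in high glucose with CGRP. It called 434 genes against high glucose (2.39%), 276 higher (1.52%) and 158 lower (0.870%). The deprived cells differed from the 2-DG cells in 10925 genes (60.2%), 5716 higher (31.5%) and 5209 lower (28.7%). These comparisons share libraries with the main one, and values are set side by side only. HSPA5 was at 1003 ± 13.02 CPM in high glucose, 1393 ± 44.4 CPM with 2-DG and 19580 ± 2138 CPM in deprivation (SD, n = 3 each). Of the 16 ER chaperones 7 were higher with 2-DG than in high glucose, with a median of 0.29, and HERPUD1 was at 27.5 ± 0.465, 46.8 ± 0.625 and 279 ± 18.1 CPM. XBP1 was at 64.7 ± 1.55, 94.0 ± 2.04 and 278 ± 29.5 CPM. DDIT3, in contrast, was at 7.50 ± 1.07, 9.98 ± 1.35 and 344 ± 126 CPM, and its difference between 2-DG and high glucose did not pass (adjusted p = 0.46).

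TXNIP, ARRDC4 and ARRDC3 moved in opposite directions in the 2 treatments. TXNIP was at 729 ± 49.2 CPM in high glucose, 885 ± 15.8 CPM with 2-DG (0.28, adjusted p = 0.02) and 10.6 ± 0.430 CPM in deprivation. ARRDC4 was at 43.5 ± 1.502, 65.3 ± 1.35 and 6.14 ± 0.701 CPM, a change of 0.59 with 2-DG (adjusted p = 8.6e-05). ARRDC3 was at 53.12 ± 1.835, 69.3 ± 1.679 and 17.42 ± 0.9556 CPM, a change of 0.38 with 2-DG (edgeR quasi-likelihood test, adjusted p = 0.012). LDHA was at 2550 ± 76.3, 2761 ± 67.2 and 827 ± 97.4 CPM, CCL2 at 1506 ± 59.0, 1678 ± 71.1 and 65.8 ± 4.66 CPM, and INHBE at 0.302 ± 0.0991, 0.331 ± 0.111 and 30.9 ± 2.62 CPM. For these 3 genes the difference between 2-DG and high glucose did not pass. The median log2 change of the 22 mitosis genes was -0.06 with 2-DG and -2.08 in deprivation. MMP1, a collagenase, was higher in both: 3.01 ± 0.330 CPM in high glucose, 6.91 ± 0.956 CPM with 2-DG and 8.09 ± 0.839 CPM in deprivation, where deprived and 2-DG cells did not differ beyond the threshold (0.23 ± 0.12, adjusted p = 0.13).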

How the data were processed

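Raw counts per gene for 18 Cal27 libraries were deposited by the authors in a single table. Reads were aligned with HISAT2 2.0.4, per the submitters' processing notes, which name hg19 and GRCh38 without a role. No source used here gives the counting tool, annotation or strand setting, so reads of paralogs, pseudogenes, overlapping and antisense genes may be shared. Per the labels' protocols, RNA was extracted with Trizol and had an integrity number above 8. Of 60683 row IDs, 60370 were in a gene name table and 42013 had a symbol. Totals were 28038260 to 32661768 counts per library.

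Genes were filtered (filterByExpr, minimum count 10), scaled by TMM and fitted over all 6 groups with edgeR 4.0.16 (R 4.3.3, robust quasi-likelihood test, 12 residual degrees of freedom, Benjamini-Hochberg threshold 0.05). The common biological coefficient of variation was 9.44%. SEs are the fold change over the root of F. The p-values and SEs rest on the spread between replicates of a single line, estimated over all 18 libraries and not only the 6 compared. Same-numbered replicates did not deviate together, so they were not treated as paired.

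The comparison and the 52 gene lists were chosen with earlier results of these data known. Of 957 list entries 905 were tested. Named genes are the 12 largest rises and falls, the 6 largest gains and losses of CPM, up to 4 members of each list, 30 fixed genes, the 5 most abundant near-silent genes each way and the 5 largest deviations each way of the deprived library that stands apart. For the difference with CGRP and for 2-DG they are the 5 largest each way. Other genes named, mostly list members, were chosen after their values were seen. Alternatives were other scalings and filters, a replicate block, the compared groups alone, DESeq2 1.42.0 and leaving out each library. Added after seeing the data were fits without the libraries that stand apart and a transcript length offset (GENCODE 29). The model was also run on simulated counts in which few genes changed, equally in both directions, and no library followed transcript length. That run cannot show how the model behaves where most genes move or 1 library stands apart. Promoter windows are from RefSeq GRCh38.p14, matched by symbol. Windows were found for 15 of 16 ER chaperone genes, 15 of 15 of the IRE1-XBP1 and ATF6 list, 25 of 32 ATF4 targets and 7 of 7 MondoA genes.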

Additional observations from a re-analysis of the deposited data

Results flagged for a closer look

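The response to glucose deprivation differed with CGRP, by the test of the difference itself, in 49 of the 254 named genes. Among all 18159 tested genes it differed in 282 (1.55%). The genes with the largest differences each way were named because of this same test. The count of 49 is therefore partly set by how the genes were chosen, and it estimates no share. Each value below is the log2 fold change of deprivation with CGRP minus that without it. A value above 0 means a larger rise or a smaller fall with CGRP, or a rise with CGRP where the gene fell without it. A value below 0 means the reverse. The fitted changes can differ in sign, as in EDN2, at -2.31 with CGRP and 0.39 without it. Above 0 were the stress and amino acid genes INHBE (2.37), GDF15 (1.17), ADM2 (0.85), PCK2 (0.70), PSAT1 (0.63), TRIB3 (0.58), GARS1 (0.52), GPT2 (0.42), MTHFD2 (0.33), SLC1A5 (0.32) and WARS1 (0.26). The oxidant defence and autophagy genes above 0 were AKR1C2 (1.08), HMOX1 (0.77), OSGIN1 (0.54) and SQSTM1 (0.53). Other genes above 0 were FSD1 (1.51), FLRT1 (1.51), FGF1 (1.43), ARNT2 (1.32), FOSL1 (0.81), BMF (0.73), CASTOR2 (0.60), PHLDA1 (0.43), MYC (0.36) and TIMP2 (0.32).

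Below 0 were the secreted and signalling genes EDN2 (-2.71), STC1 (-1.96), ANGPTL4 (-1.38), SPRY1 (-1.25), TGFB2 (-1.07), IL6 (-0.91), LOX (-0.82), CXCL1 (-0.70) and ERRFI1 (-0.70). TCAF2 (-1.65) and the zinc exporter SLC30A1 (-0.50) were below 0 too. Among glucose and hypoxia genes the values were below 0 for ARRDC3 (-1.22), EGLN3 (-0.93), TXNIP (-0.68) and ARRDC4 (-0.51). The interferon, cell cycle, keratin and mitochondrial genes below 0 were MT-ND6 (-0.71), IFI44L (-0.66), CCNG2 (-0.65), KIF20A (-0.43), IFIT2 (-0.43), MCM6 (-0.42), KRT6A (-0.39), RRM2 (-0.38) and KIF23 (-0.30). Adjusted p-values of these genes ran from 7.3e-06 to 0.033 (edgeR quasi-likelihood test), and each difference kept its sign without deprived CGRP replicate 2.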

How the results depend on the processing

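The count of genes called between deprived and high-glucose cells under CGRP was 10976, and its alternatives ran from 8588 (only the groups compared) to 12818 (without deprived CGRP 2 and 2-DG control 2). It was 10017 to 11686 when each compared library was left out in turn, 10898 with RLE size factors, 10823 with total-count scaling, 10658 with no filter, 8630 with the stricter filter, 10813 with DESeq2 and 11698 with the length offset. The count with a replicate block was 11046. Same-numbered deprived and high-glucose libraries had correlations of 0.174, 0.117 and -0.082 of their deviations, so the numbers do not pair the samples, and only deprived library 1 correlated best with its own number. With the stricter filter 902 genes were higher and 1146 lower by at least 2-fold, since fewer genes were tested. The count of genes whose response differed with CGRP was the least stable: 282 became 163 with no filter, 164 with only the groups compared, 519 with DESeq2, 164 to 596 when each library was left out, 2476 without both libraries that stand apart and 577 with the length offset. The cause was not tested. Of 4045 settings of 254 named genes 4020 kept direction and call, 19 lost the call, 6 gained it and none reversed, and PGD, TKT, ACTA2, HK2, ULK1 and FSD1 were among the 7 genes concerned. Of 2496 settings of list results 2224 stayed within their limits, 265 moved and 7 reversed: gluconeogenesis and pentose phosphate (-0.11) and Rap1 genes (-0.10) with total-count scaling, cyclins D and CDK inhibitors (0.26), markers of neurons (-0.88) and of Schwann cells (0.19) with the stricter filter, and desmosomes and tight junctions when a deprived library was left out (-0.15 to 0.21; -0.13 without deprived CGRP 1, -0.15 without deprived CGRP 3). The filter asked for about 10 counts in as many libraries as 1 group holds, taken over all 18 libraries. A tested gene could therefore have few or no counts in the libraries compared.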

Other observations

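The shares of higher and lower genes are given here by class of transcript, with no test between classes. Among 13390 tested protein-coding genes 33.4% were higher and 32.3% lower in deprivation. Among 1140 lincRNA genes 27.7% were higher and 23.4% lower. Among 1482 antisense genes 30.5% were higher and 15.9% lower, and among 623 processed pseudogenes 22.5% and 12.7%. Without deprived CGRP 2 the median log2 fold change of antisense genes was 0.09 in place of 0.18, and that of processed pseudogenes 0.05 in place of 0.26. L3MBTL2-AS1, an antisense gene, rose from 4.87, 5.07 and 4.74 CPM to 131, 109 and 128 CPM, and RPLP0P2, a pseudogene of a ribosomal protein, from 0.306, 0.814 and 0.477 CPM to 11.3, 12.2 and 10.1 CPM. Whether reads of sense partners or parent genes are counted in them was not tested.

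Several receptors and markers of cell types other than squamous epithelium changed at low levels. PRPH, a filament of sensory neurons, stood at 0.0306, 0.0626 and 0.0636 CPM in high glucose and 2.33, 4.01 and 2.08 CPM in deprivation, and TRPV1, the capsaicin receptor, rose from 4.72, 3.97 and 4.2 CPM to 9.72, 10.5 and 8.94 CPM. The neurofilament genes NEFM and NEFL fell by 2.58 and 1.82. CSF1R, the receptor of macrophage growth factors, rose by 1.35 while the monocyte marker CD14 fell by 3.55. The part of other cells in these values was not tested.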
